A study of Mus musculus with 6 samples.

Results

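The mitochondrial ribosomal protein genes were taken as all genes whose single annotation symbol begins with Mrpl or Mrps followed by a number. On this array 76 of 18193 genes with a symbol of their own met this, 47 Mrpl genes and 29 Mrps genes, and all 76 were bright enough to be tested. Each gene was read through its brightest probe set, the one with the highest mean log2 signal over all 6 arrays. The probe sets were thus selected on that mean level, not on the difference between genotypes. The levels are therefore a description, with brightest probe sets between 541 and 10660 signal units on any array. The other probe sets of the same genes served as a check.

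Mitochondrial ribosomes translate the few proteins that mitochondrial DNA encodes, all of them core subunits of the respiratory chain and the ATP synthase. Their protein components are all encoded in the nucleus, made in the cytosol and imported, with Mrpl proteins named for the large subunit and Mrps proteins for the small one. Some descend from bacterial ribosomal proteins and others exist only in mitochondria. Adult heart muscle depends heavily on oxidative phosphorylation, and inherited defects of several of these proteins cause cardiomyopathy in humans.

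The samples were hearts of C57BL/6N mouse embryos at E10.5, a stage at which the looped heart is forming its chambers. Global RhoE knockout (KO) embryos, in which a gene trap interrupts Rnd3, the gene for RhoE, were compared with wild-type (WT) embryos, on 3 arrays each. Per the series' design text the KO embryos are lost soon after the stage sampled. The trap acts in every tissue, so differences in the heart need not arise there, and the sources used here do not state how many trap lines there were or whether an array held 1 heart or a pool. The design text speaks of littermates of both genotypes, but no label ties a replicate number to a litter. The p-values measure the spread between these arrays, which number 3 a group and limit the precision.

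The trapped gene matched the labels, with Rnd3 signals of 5.89, 12.3 and 121 on KO arrays 1 to 3, against 909, 954 and 862 on WT arrays 1 to 3. Log2 signals correlated at r = 0.975 to 0.978 among KO arrays and at r = 0.982 to 0.983 among WT arrays, and KO array 1 correlated at 0.980 to 0.981 with the WT arrays, above its values with the other KO arrays. Cardiomyocyte markers, all 8 tested, summed to 205867 to 224374 signal units on KO arrays and to 211913 to 228807 on WT arrays, so the tissue label held in both groups. Single markers differed within that sum. Myh6 and Nkx2-5 were lower on every KO array than on any WT array (log2 fold changes of -0.25 and -0.29). Nppa was higher on every KO array (0.25). The other 5 overlapped, and 0 of the 8 passed the test. The sums for other cells were 5616 to 6435 in KO and 5190 to 5897 in WT for 6 endothelial markers. They were 95725 to 110200 in KO and 92662 to 110547 in WT for 7 erythroid markers. For 5 neuronal markers they were 662 to 774 in KO and 715 to 998 in WT. Dcx exceeded the signal limit on too few arrays to be tested. Macrophage markers summed to 851 to 1838 in KO and to 733 to 820 in WT (5 tested). Of these only Lyz2 passed the test, at 368, 828 and 707 in KO and 261, 203 and 232 in WT (log2 fold change 1.38). Fcer1g (0.56), Cd68 (0.09), Adgre1 (0.02) and Csf1r (-0.02) overlapped between the groups. Liver and yolk sac endoderm markers summed to 377 to 1929 in KO and to 1514 to 7360 in WT (6 tested). All 6 had negative differences. Alb passed the test narrowly, at 51.9, 36.8 and 20.7 in KO, near the signal limit, and 87.8, 148 and 183 in WT (log2 fold change -1.97). Afp was also lower on every KO array than on any WT array (-4.89) but did not pass (limma adjusted p = 0.125). The other 4 overlapped. Fgb exceeded the signal limit on too few arrays to be tested. The arrays also differed in sex-linked genes, with Xist at 539, 8884 and 28.4 on the KO arrays, against 10251, 12474 and 11878 on the WT arrays. Of the Y-linked genes, Eif2s3y gave 2214, 793 and 2339 on the KO arrays, against 551, 312 and 385 on the WT arrays. Kdm5d gave 762, 335 and 633 in KO, against 212, 142 and 148 in WT, and Uty 594, 297 and 532 in KO, against 192, 105 and 122 in WT. All 3 Y-linked genes were higher on every KO array than on any WT array and passed the test (log2 differences of 1.99, 1.73 and 1.75), while Xist was lower on every KO array and did not pass (limma adjusted p = 0.120). Sex-linked signals thus moved with genotype on all 3 KO arrays, least on KO array 2, and the part of sex in the results was examined only with the covariate fit given further on. In whole-heart RNA, a change in the number of cells of a type and a change in RNA per cell cannot be told apart.

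Members of the mitochondrial ribosome were more often higher than lower in KO hearts, by small amounts. At an adjusted p under 0.05 (limma, Benjamini-Hochberg over 12712 genes), 6 of the 76 rose in KO hearts, which is 7.89%, against 0.787% of all genes tested, and 0 fell, against 0.488% (1.27% of all genes in either direction). The count rests on few arrays: in limma it was 0 without WT array 1 (24 higher and 3 lower at an unadjusted p under 0.05) or WT array 2 (23 and 4), 1 without WT array 3 or KO array 3, 4 without KO array 2 and 19 without KO array 1. At an unadjusted limma p under 0.05 the members numbered 29 higher and 4 lower, while 8.54% of all genes were higher and 11.8% lower. The log2 fold change was positive in 55 members and negative in 21, against 43.8% positive among all genes. The median over the members was 0.14, within a range of -0.42 to 0.99, and the median over all genes was -0.04. In 35 members (46.1%) all 3 KO arrays lay above all 3 WT arrays, against 10.8% of all genes, in 4 all KO arrays lay below, against 15.5%, and 37 overlapped. The shares over all genes were not matched for signal level. Members were all bright and varied less within groups. Their median log2 SDs were 0.110 in KO and 0.0757 in WT, against 0.168 and 0.131 over all genes. Small differences can therefore pass or separate more often among members than among all genes.

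The 6 genes that rose were Mrpl33, Mrps18c, Mrpl23, Mrpl14, Mrpl34 and Mrpl32. Each encodes a protein with a bacterial counterpart. The stretches below are shown because these 6 genes passed the test, and they let the start regions be compared letter by letter. They come from RefSeq promoter windows on GRCm38.p6, run 5′ to 3′ on the gene's own strand, and cover 170 bases before and 14 after the start of the transcript. Capitals mark matches on either strand to 4 motifs, the ETS core CCGGAAG (bound by factors such as GABP), the NRF1 motif (the longer capital runs of Mrpl14 and Mrpl32), the Sp1 box GGGCGG and the E-box CACGTG. The intervals are chr5:31613781-31613964 (plus strand) for Mrpl33, chr5:100798589-100798772 (plus) for Mrps18c, chr7:142532862-142533045 (plus) for Mrpl23, chr17:45686179-45686362 (plus) for Mrpl14, chr8:71464756-71464939 (plus) for Mrpl34 and chr13:14613024-14613207 (minus) for Mrpl32.
Mrpl33: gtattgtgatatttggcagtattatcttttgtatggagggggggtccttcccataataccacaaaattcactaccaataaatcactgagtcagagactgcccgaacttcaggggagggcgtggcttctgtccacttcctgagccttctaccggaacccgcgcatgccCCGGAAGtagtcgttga
Mrps18c: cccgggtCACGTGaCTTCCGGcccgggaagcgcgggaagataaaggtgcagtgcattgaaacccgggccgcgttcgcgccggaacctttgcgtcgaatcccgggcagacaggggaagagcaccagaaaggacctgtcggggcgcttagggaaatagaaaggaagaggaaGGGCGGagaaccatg
Mrpl23: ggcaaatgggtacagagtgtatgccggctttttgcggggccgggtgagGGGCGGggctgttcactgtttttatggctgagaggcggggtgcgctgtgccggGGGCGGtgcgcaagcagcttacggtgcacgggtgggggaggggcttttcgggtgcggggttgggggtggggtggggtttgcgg
Mrpl14: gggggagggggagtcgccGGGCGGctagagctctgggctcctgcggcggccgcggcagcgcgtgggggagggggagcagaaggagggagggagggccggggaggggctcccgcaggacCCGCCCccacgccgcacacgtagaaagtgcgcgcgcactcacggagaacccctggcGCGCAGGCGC
Mrpl34: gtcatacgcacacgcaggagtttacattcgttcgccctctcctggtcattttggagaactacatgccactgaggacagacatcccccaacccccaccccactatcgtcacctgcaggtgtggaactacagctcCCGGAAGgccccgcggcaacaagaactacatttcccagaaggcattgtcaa
Mrpl32: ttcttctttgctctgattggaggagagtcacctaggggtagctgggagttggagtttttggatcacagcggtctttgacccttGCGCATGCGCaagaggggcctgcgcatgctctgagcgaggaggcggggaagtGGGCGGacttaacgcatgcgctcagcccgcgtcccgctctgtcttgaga

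The ETS core stood in 3 of the 6 windows. In Mrpl33 it lay across the start itself, in Mrpl34 just upstream of it, and in Mrps18c near the far end, next to an E-box. An NRF1 match stood in Mrpl14, just after the start, and in Mrpl32, upstream of it, while the Mrpl23 stretch held only 2 Sp1 boxes. NRF1 and GABP are regulators of many nuclear genes for mitochondrial proteins, as background. Over the whole windows of 250 bases before and 50 after the start, 67 of the 76 members had a sequence. The ETS core was in 37.3% of these 67, against 19.2% of 10244 tested genes and 9.93% of all 27025 genes with a window. NRF1 matches were in 17.9% of member windows, against 11.2% of tested genes, and the YY1 motif was in 7.46%, against 1.71%. The Sp1 box was in 50.7% of member windows, against 68.5% of tested genes. An E-box was in 7.46%, against 11.7%, the cyclic AMP response motif TGACGTCA in 2.99%, against 3.45%, and TATAAA in 7.46%, against 9% of tested genes. Members that were not called held the ETS core in 36.1% of 61 windows and NRF1 in 16.4%, so the motifs were not limited to the genes that rose. By symbol, the ETS core stood in 34.1% of the Mrpl windows and 42.3% of the Mrps windows, and NRF1 in 22% and 11.5%. Motifs were searched on both strands, and a match is a description of letters only.

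Mrpl33, a small large-subunit protein whose bacterial relative sits by the exit site for transfer RNA, had the largest difference of the 76. Its signals were 4306, 4874 and 3951 on KO arrays 1 to 3, against 2169, 2278 and 2163 on WT arrays 1 to 3. Every KO value lay well above every WT value, with means of 4377 ± 466 in KO and 2203 ± 64.9 in WT (SD, n = 3 each). The fold was 1.98, or 0.99 ± 0.09 on the log2 scale (SE), with an limma adjusted p of 0.00571. Over the 6 arrays, the log2 signals that followed Mrpl33 most closely were those of Stx8 (r = 0.994), Mrpl24 (0.993), Dram2 (0.990), Pxmp4 (0.986) and Nfe2l2 (0.986). Of these only Mrpl24 is a member. The values are a description over arrays of both genotypes, so they largely restate the difference between KO and WT.

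Mrps18c, one of the 3 mitochondrial relatives of bacterial S18, was the small-subunit gene among those that rose. It gave 3359, 4330 and 4064 on the KO arrays, against 2465, 2613 and 2533 on the WT arrays. The groups did not overlap, and KO array 1 was the lowest of its group (log2 fold change 0.62 ± 0.10, limma adjusted p = 0.0353). Its relatives Mrps18a and Mrps18b had log2 fold changes of 0.32 ± 0.11 (limma adjusted p = 0.149) and -0.00 ± 0.14 (0.995).

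Mrpl23, a relative of the bacterial protein at the mouth of the peptide exit tunnel, gave 4590, 4352 and 5046 in KO hearts, against 3072, 3278 and 3421 in WT hearts. All KO arrays were above all WT arrays, by 0.52 ± 0.09 on the log2 scale (limma adjusted p = 0.0360). A pseudogene, Mrpl23-ps1, exists, and how far its transcripts reach this probe set is not known from the files. Mrpl24, another protein of the tunnel region, gave 3737, 4026 and 3784 in KO, against 3031, 3092 and 3078 in WT, without overlap, but did not pass the test (0.33 ± 0.08, limma adjusted p = 0.0628).

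Mrpl14 lies on the face of the large subunit that meets the small one and binds the assembly factor Malsu1 there. Its signals were 1170, 1416 and 1401 on the KO arrays, against 876, 888 and 898 on the WT arrays. KO array 1 again was the lowest of the KO arrays and still above WT (0.58 ± 0.11, limma adjusted p = 0.0374). Malsu1, which keeps the subunits apart during assembly, rose as well, with 2088 ± 35.3 in KO and 1466 ± 90.9 in WT (SD, n = 3 each; 0.51 ± 0.09, limma adjusted p = 0.0360).

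Mrpl34, a small basic protein buried in the ribosomal RNA, gave 2454, 2219 and 2757 in KO hearts, against 1478, 1747 and 1789 in WT hearts. Here KO array 2 was the lowest of the KO arrays, above all WT arrays (0.57 ± 0.11, limma adjusted p = 0.0421). Mrpl32, whose yeast and mouse forms are trimmed by the m-AAA protease of the inner membrane before assembly, gave 4444, 5066 and 4380 in KO, against 3469, 3371 and 3537 in WT. Its difference was the smallest of the 6, at 0.42 ± 0.09 on the log2 scale (limma adjusted p = 0.0465), again without overlap.

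**Figure D1:**
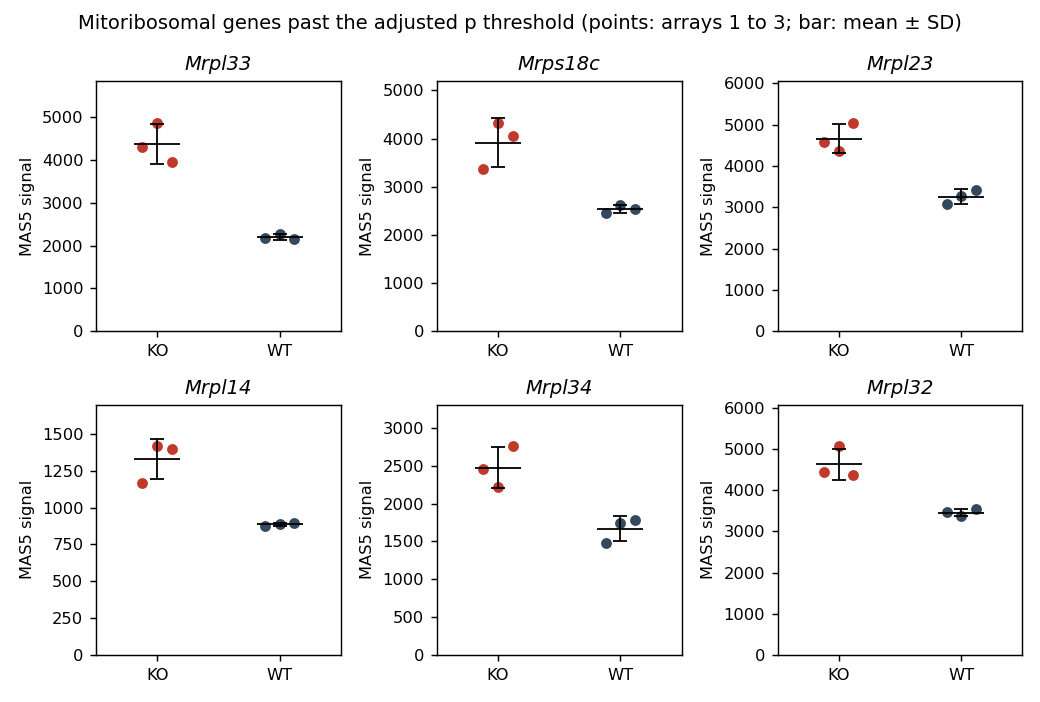
MAS5 signal (y axis, linear from 0) of the 6 mitoribosomal genes that rose, by genotype (x axis, KO and WT). Points are the 3 arrays of each group and bars the mean ± SD; in all 6 panels every KO point lies above every WT point.

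Several members fell just outside the threshold, all higher in KO. Mrps12, the relative of the bacterial protein at the decoding centre, gave 2435, 2496 and 2784 in KO and 1864, 1907 and 2031 in WT (0.41 ± 0.09, limma adjusted p = 0.0543). Mrpl3, whose bacterial relative reaches towards the peptidyl transferase centre and whose human mutations cause cardiomyopathy, gave 2585, 2619 and 2953 in KO and 2021, 2177 and 2050 in WT (0.38 ± 0.09, limma adjusted p = 0.0609). Neither gene had overlapping groups. Mrps33, Mrpl13, Mrps14 and Mrps31 followed, with log2 differences of 0.34 to 0.40 and limma adjusted p of 0.0654 to 0.0662. Mrps14, a small-subunit protein, gave 5983, 6421 and 6321 in KO and 4511, 5024 and 5301 in WT.

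Among members singled out for a known role, Mrps22, whose human mutations also cause cardiomyopathy, gave 2505, 2721 and 2720 in KO and 2177, 2186 and 2245 in WT (0.27 ± 0.08, limma adjusted p = 0.117). Mrpl12, a stalk protein that binds the mitochondrial RNA polymerase, was among the 3 brightest members, at 8876, 8044 and 9221 in KO and 7015, 7259 and 7615 in WT (0.25 ± 0.08, limma adjusted p = 0.108). Both were without overlap but did not pass the test. Mrpl10, the protein that anchors the stalk, showed -0.07 ± 0.10 with overlapping groups. Mrpl45, which tethers the ribosome to the inner membrane, showed 0.10 ± 0.09 and Mrpl58, a peptidyl-tRNA hydrolase built into the large subunit, 0.15 ± 0.09. The other brightest members, Mrpl39 and Mrpl51, were close to 0, at -0.03 ± 0.07 and 0.07 ± 0.08. Their groups overlapped.

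Of the 21 members with a negative difference, 4 had all KO arrays below all WT arrays, and none passed the test. Mrpl37, the dimmest member, gave 541, 550 and 673 in KO and 733, 850 and 763 in WT (-0.42 ± 0.12, limma adjusted p = 0.0981). Mrpl44, which has an RNase III-like fold and is another human cardiomyopathy gene, gave 2374, 1985 and 2132 in KO and 2687, 2604 and 2583 in WT (-0.28 ± 0.09, limma adjusted p = 0.127). Mrps2, the relative of bacterial S2, gave 2225, 2180 and 2103 in KO and 2579, 2424 and 2556 in WT (-0.22 ± 0.08, limma adjusted p = 0.182). Mrpl38, whose fold resembles a lipid-binding family, gave 758, 602 and 846 in KO and 896, 885 and 987 in WT (-0.34 ± 0.13, limma adjusted p = 0.184). The cardiomyopathy genes thus differed in sign, positive for Mrpl3 and Mrps22 and negative for Mrpl44. Next in order were Mrps5, Mrpl4, Mrpl2 and Mrps15, with differences of -0.30, -0.29, -0.22 and -0.16 and overlapping groups. In Mrpl4 a single array made the difference, with 2314, 1415 and 2316 in KO and 2292, 2296 and 2634 in WT.

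**Figure D2:**
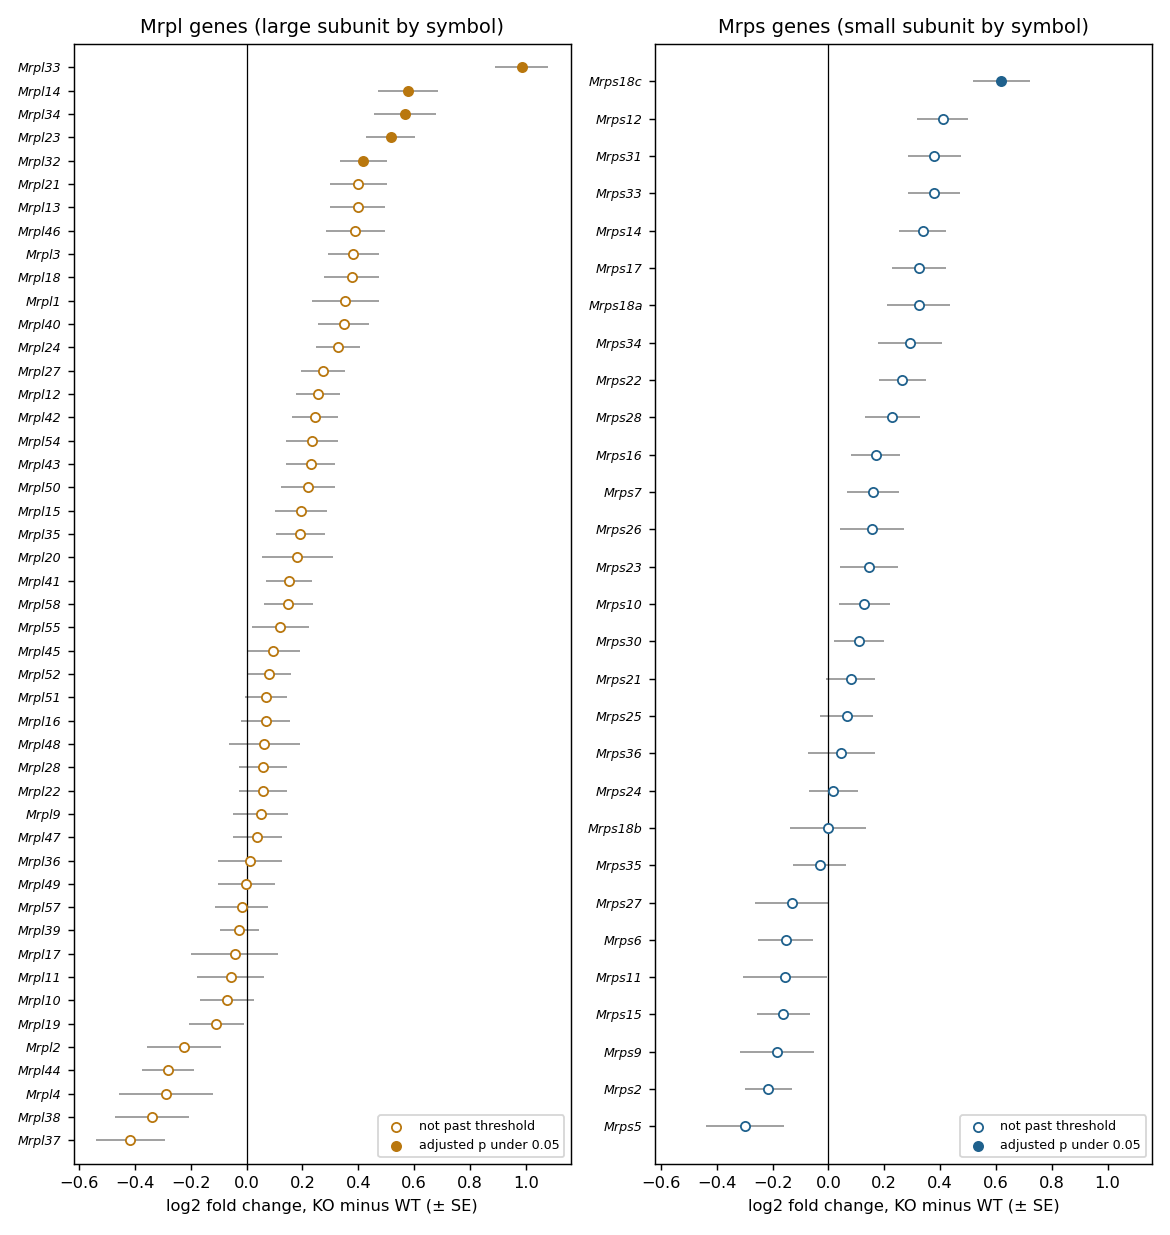
Log2 fold change, KO minus WT (x axis, ± SE), of all 47 Mrpl and 29 Mrps genes in order of size (y axis). Filled points are the 6 genes at an adjusted p under 0.05; 35 Mrpl and 20 Mrps genes lie right of 0.

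Members of both subunits had positive medians. Of 47 Mrpl genes 5 rose, 35 had a positive difference and the median was 0.15, while of 29 Mrps genes 1 rose, 20 had a positive difference and the median was 0.13. The genes that rose were 10.6% of the Mrpl and 3.45% of the Mrps genes, against 0.787% of all genes. All KO arrays lay above all WT arrays in 22 Mrpl and 13 Mrps genes (46.8% and 44.8%, against 10.8% of all genes). They lay below in 3 and 1, against 15.5% of all genes. Symbols do not fully match the structure, since Mrps30 and Mrps18a sit in the large subunit and Mrps36 belongs to the 2-oxoglutarate dehydrogenase complex. Placed by structure, 5 of 49 large-subunit genes and 1 of 26 small-subunit genes rose, with medians of 0.15 and 0.14. The 3 misnamed genes showed 0.11 ± 0.09 for Mrps30, 0.32 ± 0.11 for Mrps18a and 0.05 ± 0.12 for Mrps36, and none passed. The difference between the subunits was not tested.

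A split by origin gave 6 called genes among 45 proteins with a bacterial counterpart and 0 among the 30 other ribosomal members, counted as mitochondria-specific although Mrps18a and Mrps18b, relatives of bacterial S18, are among them. The called shares were 13.3% and 0%, against 0.787% of all genes, a share to which 0 of 30 is close. The medians, 0.16 and 0.13, and the shares positive, 33 of 45 and 21 of 30, lay close together. In 21 and 14 genes (46.7% of each class) all KO arrays lay above all WT arrays, against 10.8% of all genes. Among those 30 members 11 were higher and 3 lower at an unadjusted limma p under 0.05, and the difference between the classes was not tested.

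Array by array, the members' median log2 signal minus the WT mean was 0.15, 0.08 and 0.22 on KO arrays 1 to 3 and -0.04, -0.01 and 0.05 on WT arrays 1 to 3. The KO arrays thus all lay above the WT arrays, KO 2 by the least. For the Mrpl genes the KO medians were 0.17, 0.13 and 0.20 and the WT medians -0.05, -0.01 and 0.06. For the Mrps genes they were 0.11, 0.06 and 0.24 in KO and -0.03, -0.01 and 0.04 in WT. Above every WT array were 47, 40 and 52 of the 76 members on KO arrays 1 to 3, which is 61.8%, 52.6% and 68.4%, against 25%, 31% and 26.8% of all genes. KO array 2 was the lowest of its group in 43 members and KO array 3 the highest in 36. Members varied more within KO than within WT, with median SDs of 0.110 and 0.0757 on the log2 scale, and so did all genes, with 0.168 and 0.131.

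**Figure D3:**
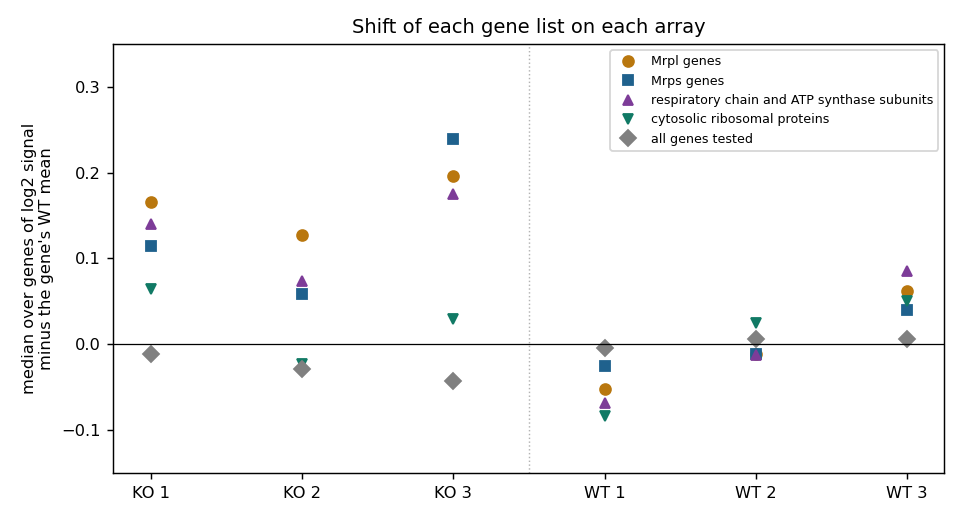
Median over the genes of a list of log2 signal minus the gene's WT mean (y axis) on each array (x axis, KO 1 to 3, then WT 1 to 3), for Mrpl genes, Mrps genes, respiratory chain genes, cytosolic ribosomal protein genes and all genes. The Mrpl and Mrps medians are positive on all KO arrays, lowest on KO 2 (0.13 and 0.06).

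One of the measures of RNA quality moved with genotype. The ratio of 3' to 5' Gapdh signal was 0.969 ± 0.0274 in KO and 1.11 ± 0.0175 in WT (SD, n = 3 each), without overlap, and that of Actb was 2.40 ± 0.164 in KO and 2.52 ± 0.147 in WT, with overlapping groups. Their part in the members' differences was not tested, nor was that of the macrophage and endoderm markers. With Xist signal as a covariate in the limma fit, the KO side of the difference rests mostly on KO array 2, since KO arrays 1 to 3 enter with weights of 0.34, 0.87 and -0.21, so that KO array 3 counts against its own group. In that fit the members' median was 0.07, 45 members were positive, and at an unadjusted p under 0.05 there were 19 higher and 11 lower. Past the threshold was 1 gene, Mrpl33 (1.15, limma adjusted p = 0.00646). The log2 differences of the other 5 were then 0.67 for Mrps18c, 0.40 for Mrpl23, 0.58 for Mrpl14, 0.40 for Mrpl34 and 0.53 for Mrpl32, with limma adjusted p of 0.0623 to 0.136.

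Further probe sets gave a less uniform picture. The members had 156 probe sets, of which 140 were tested, and 36 genes had more than 1 tested. Of the 64 further probe sets in these genes, 34 had the sign of the brightest and 30 the opposite sign. Their median log2 difference was 0.15, beside -0.03 over all 23339 tested probe sets, 40 of 64 were positive, and 0 were called in the limma test of every probe set on its own, although 17 of the 34 with all signals above 200 were higher at an unadjusted p under 0.05 and 0 were lower. That limit of 200 was chosen after the values were seen. Above it, 28 of 34 probe sets in 25 genes were positive with a median of 0.30, and 26 exceeded the difference of their gene's brightest probe set. Over the further probe sets of all genes above that limit, 12.3% of 4813 were higher and 11.4% lower at the same unadjusted p.

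In several genes the brightest probe set showed little and a dimmer one more. Mrpl49 had -0.00 on the brightest, against 0.49 on a second with 1046, 1106 and 1283 in KO and 757, 895 and 788 in WT. Mrpl11 had -0.06 against 0.34, Mrpl19 -0.11 against 0.34, Mrpl39 -0.03 against 0.30, and Mrps24 0.02 against 0.39. For Mrpl39 the second probe set read 2633, 2988 and 2859 in KO and 2268, 2251 and 2342 in WT. The brightest probe set was of the shared type (suffix _s_at, several transcripts or genes, or _x_at, probes with similarity elsewhere) in 11 members. Those 7 with _s_at had a median of -0.11 and those 4 with _x_at a median of 0.06, beside 0.22 in 42 with _at and 0.15 in 23 with _a_at. On KO array 2 the _s_at members had a median of -0.23 against the WT mean, and the _at members 0.16. Of the members lower on every KO array, Mrpl37 and Mrpl38 had a brightest probe set with _s_at, Mrpl44 with _a_at and Mrps2 with _at. Mrpl37 had no other probe set.

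For the genes that rose the check was limited. Mrpl23, Mrpl14, Mrps18c and Mrpl32 had 1 probe set each. The second of Mrpl33 was dim, at 3.09, 60.0 and 36.4 in KO and 53.0, 52.6 and 64.5 in WT, with the opposite sign (-1.58), and with both averaged Mrpl33 showed -0.30. The second of Mrpl34, at 60.6, 198 and 116 in KO and 91.8, 144 and 107 in WT, showed -0.01. Mrpl1, one of the dimmest members, had 0.35 on its brightest and -0.17 on its other probe set, and Mrpl21 had 0.40 and -0.25. Among the members with negative differences, Mrpl44 had a second probe set with -0.21 and others with 0.13 and 0.11. Mrpl38 had a dim one with 68.7, 91.8 and 82.7 in KO and 19.4, 24.6 and 4.96 in WT, opposite to its brightest. Mrpl3, by contrast, was higher on a second probe set as well, at 1483, 1591 and 1920 in KO and 1305, 1080 and 924 in WT (0.60).

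**Figure D4:**
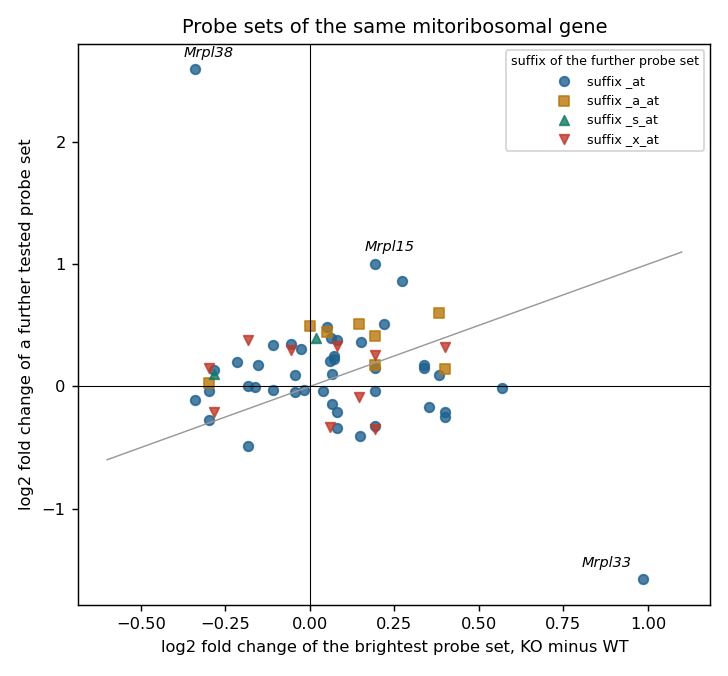
Log2 fold change, KO minus WT, of each further tested probe set (y axis) against that of the brightest probe set of the same gene (x axis); markers give the probe set suffix and the diagonal marks equal values. Of 64 points 34 share the sign of the brightest probe set, and the far points of Mrpl33 and Mrpl38 are dim probe sets.

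Mitoribosomal proteins under other symbols went the same way on balance, with 3 of 4 positive, a median of 0.19 and 0 called (2 higher and 0 lower at an unadjusted limma p under 0.05). Chchd1, a small-subunit protein, gave 7534, 7684 and 7840 in KO and 6102, 6053 and 6790 in WT (0.29 ± 0.08, limma adjusted p = 0.0802). The small-subunit proteins Ptcd3 and Dap3 showed 0.24 ± 0.10 and -0.09 ± 0.10, and Gadd45gip1, a large-subunit protein, 0.14 ± 0.11.

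Lists of genes that build or serve the mitochondrial ribosome had medians between -0.05 and 0.09. For comparison, 0.787% of all genes tested rose and 0.488% fell. Of 25 assembly and ribosomal RNA modification genes 1 rose (Malsu1), 0 fell (4 higher and 2 lower at an unadjusted limma p under 0.05), 13 were positive and the median was 0.03. Gtpbp10, a GTPase of large-subunit assembly, had means of 330 ± 54.1 in KO and 491 ± 16.4 in WT (SD, n = 3 each), without overlap (-0.58 ± 0.14, limma adjusted p = 0.0609). Eral1, which chaperones the small ribosomal RNA, showed -0.42 ± 0.12 (0.0902) and Mpv17l2 0.43 ± 0.13 (0.0973), both without overlap. Assembly genes thus lay on both sides of 0.

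Of 12 genes for translation factors and associated proteins 8 were positive with a median of 0.09 and 0 called (1 higher and 0 lower at an unadjusted limma p under 0.05). The 1 higher gene was Letm1, for an inner-membrane protein that is not itself a translation factor (0.38 ± 0.12, limma adjusted p = 0.115). Tsfm came next (0.25 ± 0.12, limma adjusted p = 0.268). Of 19 genes for mitochondrial aminoacyl-tRNA synthetases and an amidotransferase 6 were positive with a median of -0.05 and 0 called. At an unadjusted limma p under 0.05, 0 were higher and 2 lower. The 2 were Pars2 and the amidotransferase subunit Qrsl1 (-0.47 ± 0.15 for Qrsl1, limma adjusted p = 0.124). Pars2, which charges the proline transfer RNA, gave 250, 198 and 240 in KO and 346, 353 and 369 in WT (-0.64 ± 0.14, limma adjusted p = 0.0536). Of 16 genes for mitochondrial transcription and mRNA handling 9 were positive with a median of 0.07 and 0 called (0 higher and 2 lower). Polrmt, the mitochondrial RNA polymerase that Mrpl12 binds, gave 1713, 1253 and 1431 in KO and 1751, 1996 and 1878 in WT (-0.37 ± 0.12, limma adjusted p = 0.128), opposite in sign to Mrpl12.

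Nuclear respiratory chain and ATP synthase genes had a median like that of the members. Of 79 tested 7 rose (8.86%, against 0.787% of all genes) and 0 fell. At an unadjusted limma p under 0.05, 30 were higher and 2 lower. The difference was positive in 64, with a median of 0.13. In 27 (34.2%) all KO arrays lay above all WT arrays, against 10.8% of all genes. Uqcrfs1, the iron-sulphur subunit of complex III, gave 8078, 10265 and 9848 in KO and 5606, 5676 and 5625 in WT (0.73 ± 0.09, limma adjusted p = 0.0321). Sdhd, a membrane anchor of complex II, showed 0.58 ± 0.09, Uqcrh of complex III 0.56 ± 0.08 and Ndufa4 0.46 ± 0.08, all past the threshold.

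Cytosolic ribosomal protein genes, with 42 tested, had a median of 0.01, with 27 positive, 0 higher and 1 lower past the threshold (5 and 3 at an unadjusted limma p under 0.05). Rpl12 was that gene, at 597, 353 and 438 in KO and 802, 851 and 793 in WT (-0.85 ± 0.17, limma adjusted p = 0.0421). Its probe set was far dimmer than that of Rps7, at 25428 to 28010 in WT, and which transcript it reads was not examined. Many cytosolic ribosomal protein genes have near-identical processed copies, which probe sets may share, so single values and the summaries of this list are uncertain. The list holds only the 43 genes with a probe set of a single symbol. All KO arrays lay above all WT arrays in 19.0% of the genes tested, against 10.8% of all genes and 46.1% of the mitochondrial ones. No test was made between lists.

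**Figure D5:**
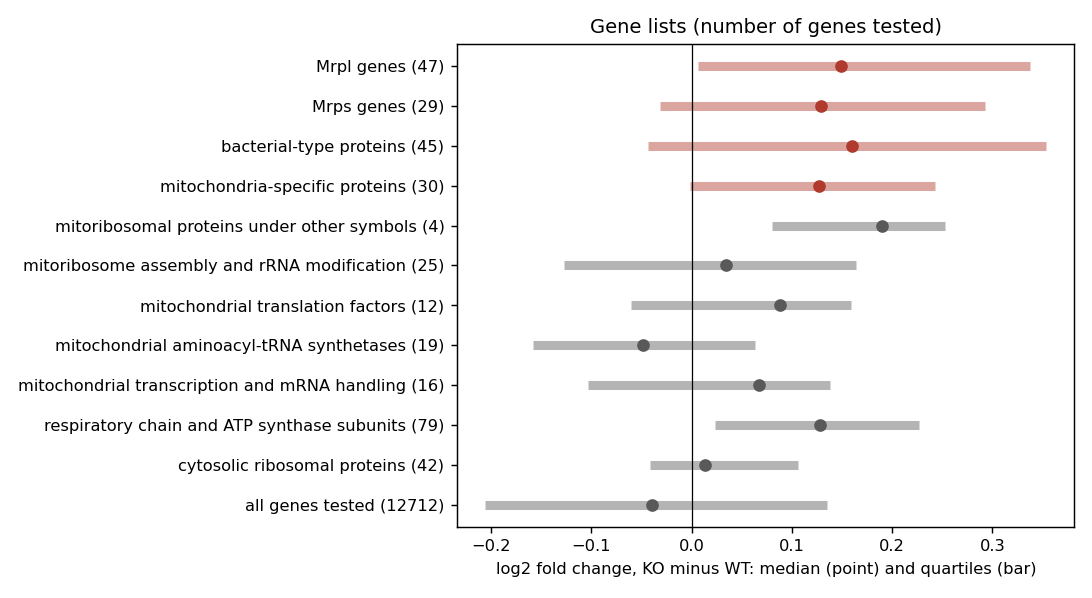
Median (point) and quartiles (bar) of the log2 fold change, KO minus WT (x axis), for each gene list (y axis, genes tested in brackets). The medians of the Mrpl (0.15), Mrps (0.13) and respiratory chain genes (0.13) lie right of those of the cytosolic ribosomal proteins (0.01) and of all genes (-0.04).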

How the data were processed

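RNA of E10.5 hearts was hybridised to Affymetrix mouse arrays, 3 KO and 3 WT, grouped by the genotype in the labels. Each deposited value is the signal intensity of a probe set; per the submitters' processing notes the authors used Affymetrix Expression Console and MAS5, with no version named. MAS5 subtracts mismatch signal and scales each array, so dim probe sets are noisy; in these values every array's mean after trimming 2% at each end was 500.

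Of 45101 probe sets, 64 controls were left out. Of the other 45037, 34945 had 1 gene symbol, 932 several and 9160 none listed, per the platform annotation. The 76 member symbols were all in a RefSeq gene table; Mrpl30 and Mrpl53 had only probe sets shared with another gene and were not analysed here. Signals were taken to log2, and the brightest probe set of each of 18193 genes was tested where it exceeded the array's 40th percentile (44.5 to 52.8) on at least 3 of 6 arrays, which left 12712 genes. The KO minus WT difference was fitted in R 4.3.3 by limma 3.58.1 (eBayes with an intensity trend, Benjamini-Hochberg, threshold 0.05); "rose" and "fell" refer to genes past it, and errors of log2 differences are limma's standard errors. The fit was tested on simulated data. Alternatives covered normalization, centring, a floor, the filter, averaging or separating probe sets, the intensity trend, weights per array, a replicate block, Xist as a covariate and leaving out each array.

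Members and lists were chosen with earlier results of these data known. Genes named were those past the threshold, the 12 members with the smallest p among positive and the 8 among negative differences, and the 3 brightest and 3 dimmest. Also named were members whose probe sets disagree, fixed names with a known role, 4 of each other list and the genes most like Mrpl33 over the arrays. Mrpl10, Mrpl45, Mrpl58, Mrps18b and Mrps24 were added for their role or probe sets after the values were seen. Summaries were made with Python 3.11.15 and pandas 2.3.3, and figures with matplotlib 3.10.9.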

Additional observations from a re-analysis of the deposited data

How the results depend on the processing

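The members' median log2 difference was positive under each of 17 alternatives, between 0.07 and 0.19, and between 0.0968 and 0.173 when 1 array was left out. Several of these settings could not move it. With no intensity trend, every probe set on its own or the replicate block, the same log2 differences entered. With the floor, no filter or the filter on all 6 arrays, the members' values were unchanged, and the median stayed at 0.14. Median centring shifted all genes alike. The number of members called changed more. It was 6 with quantile normalization, 6 with a floor at the signal limit, 16 with median centring, 8 with a filter on all 6 arrays, 19 with array weights, 5 with the replicate block, 4 with every probe set on its own, 1 with no filter, 1 with the Xist covariate, 0 with averaged probe sets (25 higher and 1 lower at an unadjusted limma p under 0.05) and 0 with no intensity trend (26 and 3). Over all genes these settings called 207, 157, 312, 291, 542, 189, 83, 1, 6, 0 and 1, against 162. Median centring raised the share of calls higher in KO to 81.1%, against 61.7%. Leaving out 1 array gave 0 to 19 members and 0 to 927 genes: 0 members without WT 1 (24 higher and 3 lower at an unadjusted limma p under 0.05) and without WT 2 (23 and 4), 1 without WT 3, 19 without KO 1, 4 without KO 2 and 1 without KO 3. The design text speaks of littermates, but no label ties the numbers to litters; deviations of same-numbered arrays correlated at 0.0182, 0.0573 and 0.0150, so pairing by number was neither given nor clear from the data; with the replicate block Mrpl32 was no longer called. Mrpl33 was called under 13 of 17 alternatives, Mrps18c and Mrpl23 under 9, Mrpl14 and Mrpl34 under 8 and Mrpl32 under 6. Mrpl33 lost its call without the trend (limma adjusted p = 0.206), without WT 1 (0.0913) and without WT 2 (0.0552), and turned to -0.30 when its dim second probe set was averaged in. Averaging also turned Mrpl1 to -0.15, Mrpl19 to 0.0430, Mrpl38 to 0.71, Mrpl39 to 0.14, Mrpl49 to 0.25 and Mrps15 to 0.0896. Members near 0 changed sign elsewhere: Mrpl11 ranged over -0.183 to 0.0352 as arrays were left out; Mrpl39 was 0.0229 with centring and ranged over -0.0480 to 0.0121; Mrpl49 was 0.0290 with quantile normalization, 0.0487 with centring and 0.0242 with weights and ranged over -0.0522 to 0.0635; Mrps36 was -0.22 with the Xist covariate and ranged over -0.0499 to 0.196. The cause was not tested. MAS5 signals near the limit are noisy, which bears on the dim further probe sets.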
